A study of Mus musculus with 60 samples.

Results

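Cytochrome P450 families 1 to 4 are the heme-containing monooxygenases that oxidise drugs, environmental chemicals, steroids, bile acids and fatty acids. The members described here are the protein-coding genes whose symbol is Cyp, a family number from 1 to 4, a subfamily letter and a gene number, and whose mean FPKM (fragments scaled by transcript length and sequencing depth) reached 0.5 in at least 1 tissue. Of 76 protein-coding genes with such a symbol among the 54532 genes of the series, 55 passed, comprising 3 in family 1, 34 in family 2, 4 in family 3 and 14 in family 4. The members with the lowest qualifying tissue mean were Cyp1a1 (0.573), Cyp2ab1 (0.626), Cyp2b13 (0.690) and Cyp2a4 (0.726), and the genes nearest below were Cyp2d11 (0.370), Cyp2d12 (0.332) and Cyp2j8 (0.155).

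RNA was sequenced from 6 tissues of 10 male wild-type C57BL/6 mice with diet-induced obesity, giving 60 libraries. All mice, controls included, received high-fat diet from 12 weeks of age for 16 to 20 weeks and were about 28 weeks old. Mice 1 to 5 received vehicle and mice 6 to 10 received sulforaphane (SFN, 5 mg/kg), an isothiocyanate known to activate the transcription factor NRF2, by daily intraperitoneal injection for 1 week. The tissues were liver, epididymal white adipose tissue (eWAT), inguinal white adipose tissue (iWAT), brown adipose tissue (BAT), hypothalamus and skeletal muscle. No lean or chow-fed group was analysed here, and each tissue sample is bulk RNA from 1 mouse, so fewer cells of a type and less RNA per cell cannot be told apart.

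P450 enzymes of these families sit in the endoplasmic reticulum and take electrons from P450 oxidoreductase. In liver their genes are known targets of ligand-sensing receptors: AHR for Cyp1, CAR and PXR for Cyp2b, Cyp2c and Cyp3a, and PPAR alpha for Cyp4a. Several Cyp2 and Cyp4a genes of mouse liver also differ between males and females under the control of pulsatile growth hormone, and Cyp2a5 is a known target of DBP, a circadian factor that binds D-boxes.

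Promoters of 46 of the 55 members were found in RefSeq (GRCm38.p6), each as the 250 bases before and the 50 bases after the annotated start. Those of 6 members are shown to compare members within a subfamily and to show each D-box match. Cyp2a5 and Cyp2a4 are a near-identical pair that both fell in liver, Cyp3a11 and Cyp3a25 fell while Cyp3a13 of the same subfamily rose, and Cyp2b10 is the other member with a D-box match. The windows are chr7:26835089-26835388 for Cyp2a5, chr7:26306942-26307241 for Cyp2a4 and chr7:25897408-25897707 for Cyp2b10, all on the plus strand, and chr5:145879805-145880104 for Cyp3a11, chr5:146009569-146009868 for Cyp3a25 and chr5:137921570-137921869 for Cyp3a13, all on the minus strand. All are read 5′ to 3′ on the coding strand, and capitals mark the D-box TTATGNAA and the nuclear receptor hexamer AGGTCA on either strand.
Cyp2a5: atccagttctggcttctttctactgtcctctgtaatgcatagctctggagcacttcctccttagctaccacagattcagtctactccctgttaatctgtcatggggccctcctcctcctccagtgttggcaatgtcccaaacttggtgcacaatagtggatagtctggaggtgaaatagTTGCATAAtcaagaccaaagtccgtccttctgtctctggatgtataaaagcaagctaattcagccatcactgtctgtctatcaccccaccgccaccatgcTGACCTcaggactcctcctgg
Cyp2a4: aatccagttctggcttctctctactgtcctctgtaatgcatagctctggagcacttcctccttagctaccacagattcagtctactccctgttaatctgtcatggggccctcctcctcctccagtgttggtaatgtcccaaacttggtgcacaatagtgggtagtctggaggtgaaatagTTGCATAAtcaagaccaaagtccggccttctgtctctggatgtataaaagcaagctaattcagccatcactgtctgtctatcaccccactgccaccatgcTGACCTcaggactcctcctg
Cyp2b10: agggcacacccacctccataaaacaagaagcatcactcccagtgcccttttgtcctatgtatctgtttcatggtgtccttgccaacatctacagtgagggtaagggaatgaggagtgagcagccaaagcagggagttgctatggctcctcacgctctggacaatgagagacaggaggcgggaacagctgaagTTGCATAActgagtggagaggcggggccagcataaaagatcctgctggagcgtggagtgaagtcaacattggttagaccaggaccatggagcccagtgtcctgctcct
Cyp3a11: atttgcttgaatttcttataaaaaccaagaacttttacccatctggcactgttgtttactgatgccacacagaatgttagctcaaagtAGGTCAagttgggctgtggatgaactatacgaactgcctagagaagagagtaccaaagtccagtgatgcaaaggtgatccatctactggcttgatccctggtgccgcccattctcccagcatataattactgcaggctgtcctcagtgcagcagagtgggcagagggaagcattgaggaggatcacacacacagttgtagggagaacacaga
Cyp3a25: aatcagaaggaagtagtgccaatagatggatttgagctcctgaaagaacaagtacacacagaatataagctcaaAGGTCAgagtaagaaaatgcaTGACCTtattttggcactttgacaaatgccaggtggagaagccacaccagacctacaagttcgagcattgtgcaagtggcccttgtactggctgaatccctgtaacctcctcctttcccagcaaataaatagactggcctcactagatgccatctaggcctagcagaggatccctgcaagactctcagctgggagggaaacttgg
Cyp3a13: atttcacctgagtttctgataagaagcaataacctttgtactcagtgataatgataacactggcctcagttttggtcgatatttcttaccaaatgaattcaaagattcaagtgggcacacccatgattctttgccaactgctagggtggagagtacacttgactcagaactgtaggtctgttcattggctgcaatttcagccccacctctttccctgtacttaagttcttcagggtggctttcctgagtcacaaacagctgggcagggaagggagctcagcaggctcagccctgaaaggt

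The D-box was present in 3 of the 46 member promoters (6.52%), those of Cyp2a5, Cyp2a4 and Cyp2b10, against 3.52% of 27025 promoters of the same length. In all 3 it read TTGCATAA, at 71, 70 and 58 bases before the start, letters that also match the C/EBP site TTGCNNAA. The hexamer was present in 14 of 46 (30.4%), against 16.0% of all promoters. Cyp3a25 had 2 copies, Cyp3a11 had 1, and Cyp3a13 had none in this window, while in Cyp2a5 and Cyp2a4 it lay 29 and 30 bases after the start. Of the Cyp2c members called in liver, Cyp2c70, which rose, had it 74 bases before the start, and Cyp2c38 and Cyp2c67, which fell, had none in this window. The promoters of Cyp2a5 and Cyp2a4 were identical at 294 of 301 aligned positions (97.7%), while Cyp3a13 matched Cyp3a11 at 56.7% and Cyp3a25 at 52.9%. These are matches of letters, and binding was not measured.

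The labelled tissues carried their defining markers. Summed FPKM of 10 hepatocyte markers was 47351 to 74623 in liver libraries and at most 17.4 elsewhere, 6 muscle fibre markers summed to 72474 or more in skeletal muscle, and 9 neuronal markers to 1106 or more in hypothalamus. Total counts ranged from 15014550 to 25629640 per library (median 17224428). In iWAT, 4 libraries (vehicle mouse 2 and SFN mice 6, 7 and 8) had summed B and T lymphocyte markers of 180 to 343, against 1.99 to 10.5 in the other 6.

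In vehicle mice, liver was the highest tissue for 43 of the 55 members, and for 40 of these every liver library lay above every library of the next tissue. eWAT was highest for 5 members, hypothalamus for 4, and iWAT, BAT and skeletal muscle for 1 each. The skeletal muscle member, Cyp4f39 (mean 5.21 FPKM), rested on vehicle mouse 2 at 23.4, against 0.451 to 0.857 in the other vehicle mice. Of the 55, 35 reached a vehicle mean of 0.5 FPKM in a single tissue, and 6 (Cyp2d22, Cyp2j6, Cyp4f13, Cyp4f16, Cyp4f17 and Cyp4v3) reached it in all 6 tissues. Since mean FPKM chose the members, these levels are a description with no test.

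**Figure D1:**
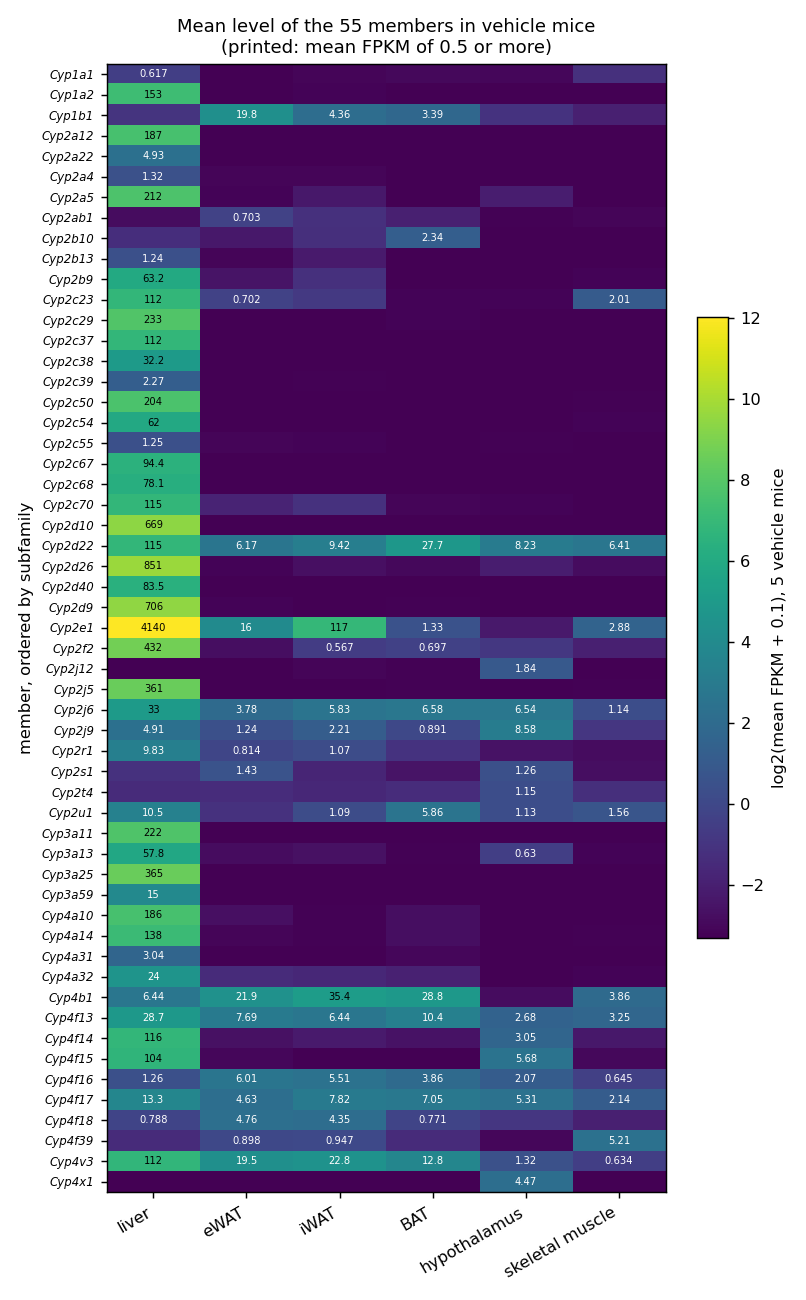
Mean FPKM of the 55 members (rows, ordered by subfamily) in the 5 vehicle mice of each tissue (columns), coloured on a log2(mean FPKM + 0.1) scale from dark (low) to bright (high), with means of 0.5 or more printed. Liver is the brightest tissue for 43 of the 55 members.

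Cyp2e1, which oxidises ethanol, acetone and paracetamol, was the most abundant member by far, at 4139.8 ± 571 FPKM in vehicle liver (SD, n = 5, as for all vehicle and SFN means below). It made up 39.4% of the summed FPKM of the members there, followed by Cyp2d26 (851 ± 47.1), Cyp2d9 (706 ± 213), Cyp2d10 (669 ± 80.2) and Cyp2f2 (432 ± 86.4). Cyp2e1 was also present in iWAT at 117 ± 41.5 and in eWAT at 16.0 ± 12.7 FPKM, and the order liver, iWAT, eWAT was kept with no overlap between neighbouring tissues. All members together took 0.954% to 1.91% of the summed FPKM of a liver library, and at most 0.251% of a library of any other tissue.

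Other members were highest outside the liver. Cyp4b1, a fatty acid and xenobiotic hydroxylase, was at 35.4 ± 3.74 FPKM in iWAT and 28.8 ± 3.07 in BAT, which overlapped, then at 21.9 ± 2.88 in eWAT, 6.44 ± 3.01 in liver and 3.86 ± 0.539 in skeletal muscle. Cyp1b1, which oxidises estrogens and polycyclic hydrocarbons, was at 19.8 ± 4.99 in eWAT, above all libraries of iWAT (4.36 ± 0.587). In eWAT, Cyp4f18, a leukotriene hydroxylase of mouse neutrophils, was at 4.76 ± 0.721, which overlapped with iWAT (4.35 ± 4.23). Hypothalamus was highest for Cyp2j9 (8.58 ± 0.837, against 4.91 ± 0.705 in liver), Cyp4x1 (4.47 ± 0.296), Cyp2j12 (1.84 ± 0.310) and Cyp2t4 (1.15 ± 0.289). Cyp2b10, the classic CAR target, was at 2.34 ± 1.33 in BAT and below the 0.5 limit in liver.

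Mouse-to-mouse spread in vehicle liver differed widely between members. The coefficient of variation was 3.5% for Cyp2a12 and Cyp2j5 and 5.5% for Cyp2d26. It was 76.7% for Cyp2b9, 104.5% for Cyp2b13 and 105.2% for Cyp2a4, all 3 of which are female-biased genes measured here in males.

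In liver, 6 of the 47 members tested were lower and 2 were higher after SFN. Of the 6, Cyp2a4 reached the 0.5 FPKM limit only through its vehicle mice, so its entry into the test favoured a call of lower. The mRNAs that fell were those of Cyp2a5, Cyp2a4, Cyp3a11, Cyp3a25, Cyp2c38 and Cyp2c67, and those that rose were of Cyp3a13 and Cyp2c70. Only mRNA was measured here, not protein or enzyme activity. Among all 13388 genes tested in liver, 6.19% were called lower and 6.89% higher (limma, two-sided, Benjamini-Hochberg adjusted p below 0.05). The log2 fold change was negative for 40 of the 47 members, with a median of -0.31, against 52.7% negative and a median of -0.02 over all genes. In this fit the share of members called lower was above that of all genes. The 2 called higher were too few to set their share against that of all genes. The count called lower depended on single mice. It was 2 without vehicle mouse 1, where 4.20% of all genes were called lower, a share near that of the members. In 7 of the 47 every SFN library lay outside the vehicle range, against 12.1% of all genes.

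**Figure D2:**
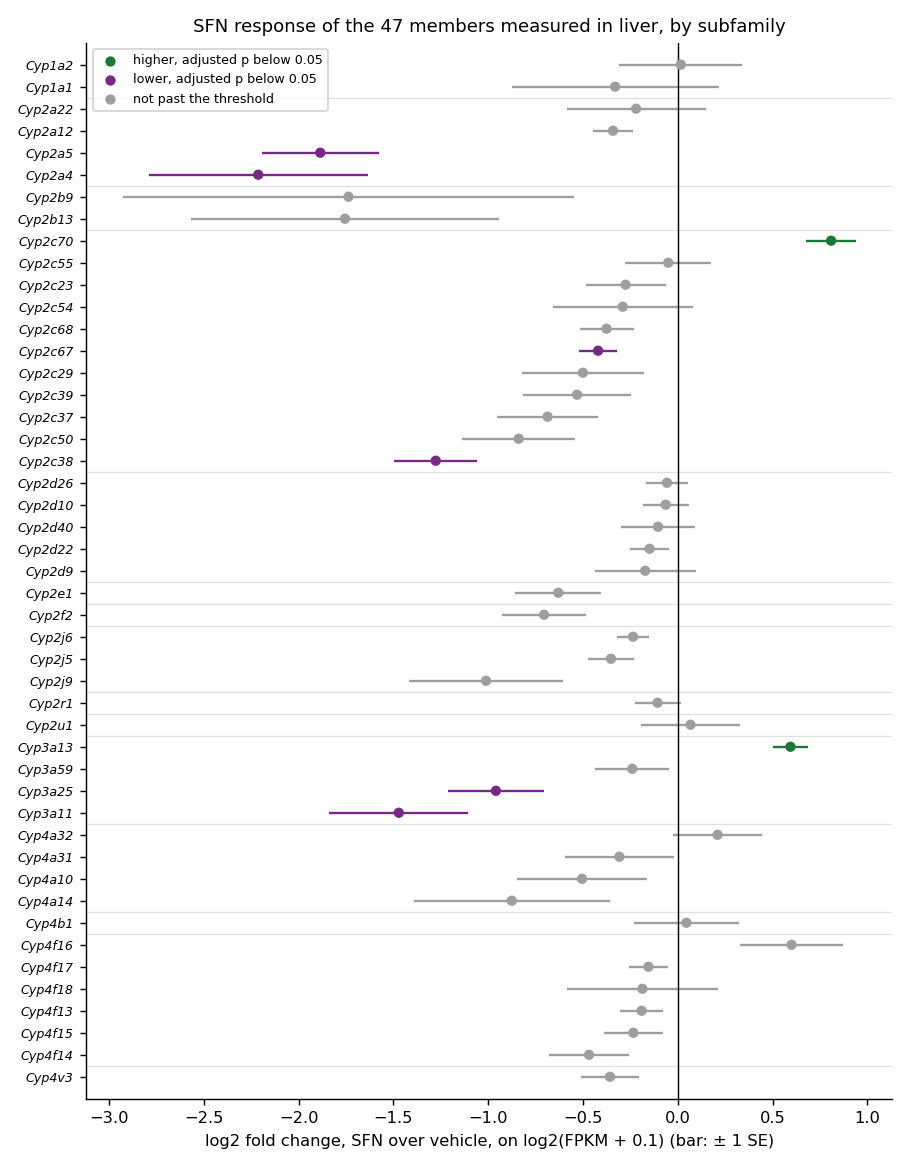
Log2 fold change (SFN over vehicle, log2(FPKM + 0.1) scale) with its SE for the 47 members tested in liver, ordered by subfamily. Of the 47 points, 40 lie below 0 and 7 above, and the 8 called members are marked.

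Cyp2a5, the mouse coumarin hydroxylase, fell most among the called members above 10 FPKM. It was at 239.8, 152, 206, 217 and 244 FPKM in vehicle mice 1 to 5 and at 81.5, 50.9, 29.4, 108 and 43.5 in SFN mice 6 to 10. All 5 SFN livers lay below the lowest vehicle liver. The mean fell from 212 ± 36.9 to 62.6 ± 31.7 FPKM, a log2 fold change of -1.89 ± 0.31 (SE; limma, adjusted p = 0.00683; exact permutation test, p = 0.00794, the smallest that 5 against 5 can give).

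Cyp2a4, a steroid hydroxylase that is female-biased in mouse liver, was near the lower limit of measurement. Its FPKM was 1.44, 3.69, 0.775, 0.389 and 0.331 in vehicle mice and 0.105, 0.0998, 0.0395, 0.158 and 0.240 in SFN mice, from between 1 and 93 reads per library. The groups did not overlap, and the log2 fold change was -2.21 ± 0.58 (limma, adjusted p = 0.0326). Cyp2a4 entered the test only through its vehicle values, as all SFN values lay below the 0.5 FPKM limit. Of the 100-base windows of the Cyp2a4 transcripts, 11.2% also occur in other genes, chiefly Cyp2a5, so reads of the pair may have been exchanged. Summed over the subfamily, Cyp2a was at 347 to 436 FPKM in vehicle and 150 to 282 in SFN livers, again with no overlap. Cyp2a12, of the same subfamily, was at 187 ± 6.53 and 149 ± 24.6 FPKM with no overlap between groups, but did not pass (limma, adjusted p = 0.0591).

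The Cyp3a subfamily moved in both directions. Cyp3a11, the main PXR-induced drug-metabolising enzyme of mouse liver, was at 283, 341, 216, 128 and 142 FPKM in vehicle and at 124, 36.4, 108, 81.3 and 57.9 in SFN mice. The groups did not overlap, although vehicle mice 4 and 5 lay close to SFN mouse 6. The mean fell from 222 ± 91.0 to 81.6 ± 35.7, a log2 fold change of -1.47 ± 0.37 (limma, adjusted p = 0.0272). Cyp3a25, another hepatic drug-metabolising member, was at 479, 379, 309, 299.8 and 361 in vehicle and 304, 129, 126, 262 and 168 in SFN mice. Its groups overlapped through SFN mouse 6, and the log2 fold change was -0.96 ± 0.25 (limma, adjusted p = 0.0338). Cyp3a13 went the other way, from 69.6, 57.6, 57.6, 49.2 and 55.1 to 85.0, 93.0, 92.0, 75.4 and 89.8 FPKM. Every SFN liver exceeded every vehicle liver, with a log2 fold change of 0.59 ± 0.094 (limma, adjusted p = 0.00587). Cyp3a59, the other member, was at 15.0 ± 5.05 and 12.3 ± 1.89 (limma, adjusted p = 0.444).

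The Cyp2c subfamily also split. Cyp2c70, which makes the muricholic acids that set mouse bile apart from human bile, rose from 156, 106, 108, 108 and 98.5 FPKM to 209, 171, 218, 177 and 227. The groups did not overlap, and the log2 fold change was 0.81 ± 0.13 (limma, adjusted p = 0.00641). Cyp2c38, an arachidonic acid monooxygenase, fell from 42.7, 37.8, 29.5, 26.7 and 24.4 to 16.9, 8.07, 11.3, 15.8 and 15.0 FPKM. Here too every SFN liver lay outside the vehicle range, with a log2 fold change of -1.28 ± 0.22 (limma, adjusted p = 0.00791). Cyp2c67 was at 94.4 ± 9.85 and 70.6 ± 9.05 FPKM, with a log2 fold change of -0.42 ± 0.10 (limma, adjusted p = 0.0234). Its groups overlapped, and 23.7% of its 100-base windows occur in other genes such as Cyp2c69. Of the 11 Cyp2c members, 10 had a negative log2 fold change, and Cyp2c70 was the exception.

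**Figure D3:**
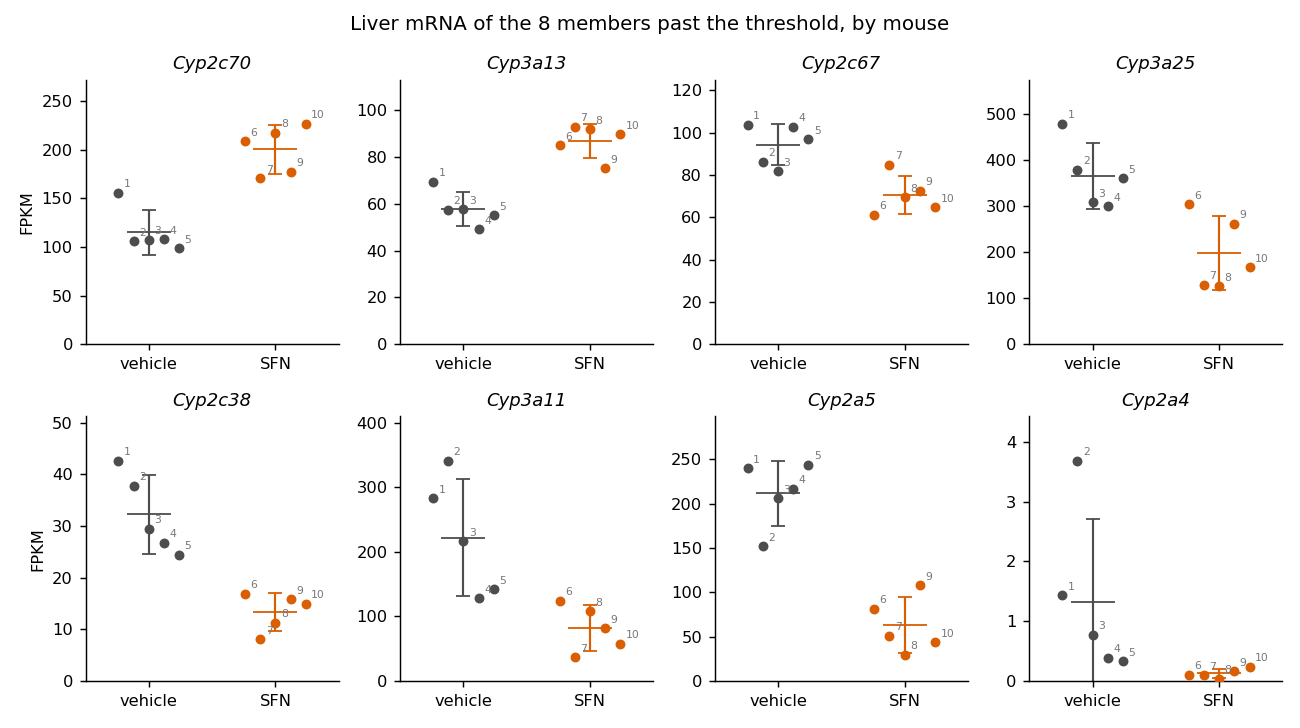
FPKM of the 8 called members in each liver, with the mean and SD of the 5 vehicle and the 5 SFN mice (linear axes from 0, at which the lower SD bar of Cyp2a4 ends; small numbers give the mouse). Cyp3a13 and Cyp2c70 lie higher in all SFN mice, Cyp2a5, Cyp2c38, Cyp3a11 and Cyp2a4 lie lower in all, and Cyp2c67 and Cyp3a25 overlap.

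On the genome (GRCm38), Cyp2a5 (chromosome 7, 26835305 to 26843548, plus strand) and Cyp2a4 (chromosome 7, 26307169 to 26315088, plus strand) lie in the same gene cluster. Cyp3a11 (145854426 to 145879964) and Cyp3a25 (145977194 to 146009618) lie near each other on the minus strand of chromosome 5, and Cyp3a13 (137892932 to 137921619) lies apart from them on the same chromosome. Cyp2c38 (39389556 to 39463075), Cyp2c67 (39608842 to 39649051) and Cyp2c70 (40153353 to 40187333) lie on the minus strand of chromosome 19.

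Of the 5 most abundant liver members, Cyp2e1, Cyp2d26, Cyp2d9, Cyp2d10 and Cyp2f2, none passed limma. Cyp2e1 was at 4199.6, 3245, 4284, 4834 and 4137 FPKM in vehicle and at 3628, 1711, 2011, 3762 and 2803 in SFN mice. SFN mice 7, 8 and 10 were lowest, the groups overlapped, and the log2 fold change was -0.63 ± 0.23 (limma, adjusted p = 0.0907). Cyp2f2, which activates naphthalene, was at 432 ± 86.4 and 273 ± 90.0 (limma, adjusted p = 0.0606), and Cyp2j5, an arachidonic acid epoxygenase, at 361 ± 12.7 and 287 ± 54.3 (limma, adjusted p = 0.0762). All 3 of these genes were called lower by DESeq2, after rescaling to TPM and after quantile normalization. None of the 3 was called by edgeR or with other pseudocounts or filters. Of 19 alternatives, Cyp2e1 stayed uncalled in 15 and Cyp2f2 in 14. For Cyp2e1 the adjusted p was 0.030 with DESeq2, 0.0446 under TPM and 0.0140 after quantile normalization (both limma), and for Cyp2f2 it was 0.0129, 0.0320 and 0.0361. Summed over the Cyp2j subfamily, vehicle livers were at 382 to 413 FPKM and SFN livers at 253 to 380.1, with no overlap. Cyp2d26 was at 851 ± 47.1 and 824 ± 122 and Cyp2d10 at 669 ± 80.2 and 642 ± 93.0 (limma, adjusted p = 0.765 and 0.767).

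Summed over all members, liver FPKM was 10905, 8896, 10664, 11414 and 10514 in vehicle and 9910, 5726, 6164, 9586 and 8065 in SFN mice. SFN mice 7, 8 and 10 lay below every vehicle mouse, whereas SFN mice 6 and 9 lay within the vehicle range. The hepatocyte marker sum in the same SFN mice was 74623, 56720, 47351, 64203 and 50015, against 60547 to 68305 in vehicle mice, and was also lowest in mice 7, 8 and 10. Of the 10 hepatocyte markers, 6 had a positive and 4 a negative log2 fold change, with a median of 0.083. Among them, 1 (Fgb) was called higher and 0 lower. All 5 fibroblast markers were called lower in SFN liver (sum 64.1 to 86.7 in vehicle, 34.3 to 55.7 in SFN), and of 5 cholangiocyte markers Spp1 and Sox9 were called higher while Krt7, Krt19 and Epcam were not (sum 57.2 to 150.3 in vehicle, 210 to 1013 in SFN). The part of these in the P450 results was not tested.

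**Figure D4:**
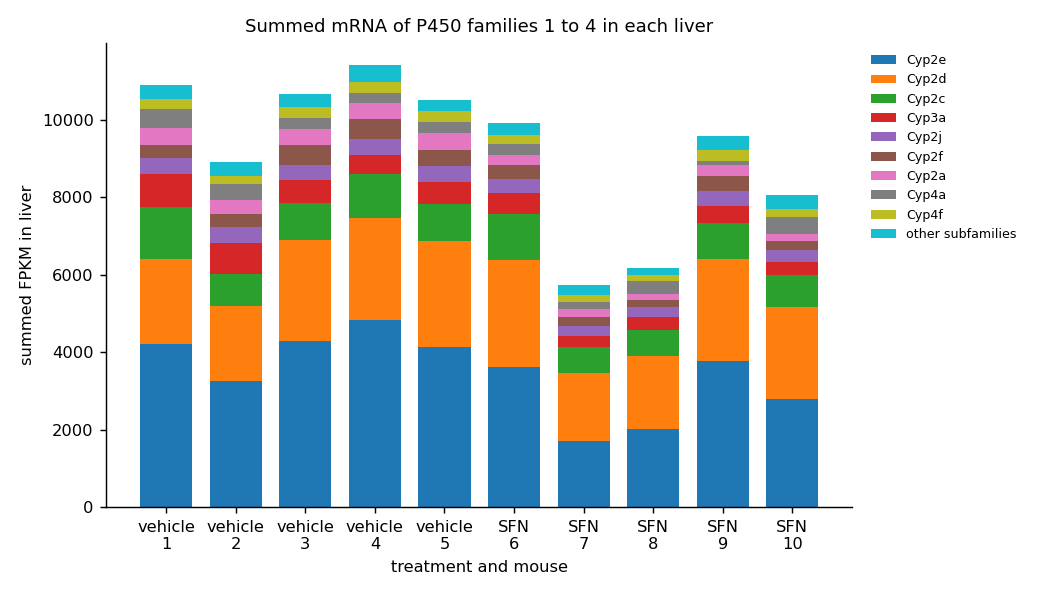
Summed FPKM of the members in each liver, stacked by subfamily, for vehicle mice 1 to 5 and SFN mice 6 to 10. Cyp2e1 (labelled Cyp2e) is the largest block in every mouse but SFN mouse 7, in which Cyp2d is, and the total ranges from 5726 in SFN mouse 7 to 11414 in vehicle mouse 4.

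The number of liver members called lower changed when single mice were left out. It was 2 without vehicle mouse 1 (4.20% of all genes called lower) and 3 without any 1 of vehicle mice 2 and 3 and SFN mouse 10 (3.82%, 4.04% and 3.42%). It rose to 11 without SFN mouse 6 (6.43%) and to 12 without SFN mouse 9 (7.79%). Rescaling each library to TPM gave 2 higher and 11 lower, against 10.6% of all genes called lower, and DESeq2 on recovered reads gave 2 higher and 12 lower, against 9.18% of genes called lower by DESeq2. Cyp3a13, Cyp2c70, Cyp2a5 and Cyp2c38 were called in the same direction under all 19 alternatives. Leaving out 1 mouse raised the largest adjusted p (limma) to 0.0573 for Cyp2c67, 0.0637 for Cyp3a11, 0.0726 for Cyp2a4 and 0.0729 for Cyp3a25.

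Members were also grouped by the receptor known to control them, and no gene of these lists was called outside the liver by limma. In BAT, Cyp2b10 was called higher by DESeq2 (adjusted p = 0.0146) and by limma in the fit over all 60 libraries (adjusted p = 0.00416). That fit shares a gene's spread across tissues, and Cyp2b10 was below 0.5 FPKM outside BAT, so its p there can be too small. In liver, 6.19% of all genes were called lower and 6.89% higher, with a median log2 fold change of -0.02, and the lists gave the following. Of 11 CAR and PXR target genes, 10 were tested, Cyp3a13 rose, Cyp3a11 and Cyp3a25 fell, and the median log2 fold change was -0.76. Cyp2c50, of the same list, was at 204 ± 44.8 and 122 ± 57.1 FPKM (limma, adjusted p = 0.0869). Of 3 AHR targets, 2 were tested in liver and neither passed limma, at an unadjusted p below 0.05 or by edgeR or DESeq2: Cyp1a2, the caffeine-metabolising enzyme, was at 153 ± 50 and 160.4 ± 64.4, and Cyp1a1 at 0.617 ± 0.378 and 0.529 ± 0.483.

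The fatty acid omega-hydroxylases of the Cyp4a subfamily are targets of PPAR alpha. Cyp4a14 was at 221, 182, 100.1, 88.7 and 99.5 FPKM in vehicle and 60.1, 52.9, 133, 22.3 and 179.9 in SFN mice, and Cyp4a10 at 186 ± 35.6 and 145 ± 66.9 (limma, adjusted p = 0.283 and 0.348). SFN mice 8 and 10 lay within the vehicle range for both genes, and the groups overlapped. Of 6 genes on the list, 1 fell and 0 rose, with a median log2 fold change of -0.47. Over all liver genes 6.19% were called lower and 6.89% higher. The one that fell was Cyp4a12a, a male-biased gene whose symbol lies outside the member rule, which went from 88.9 ± 47.2 to 26.3 ± 14.3 FPKM (limma, adjusted p = 0.0473).

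Among genes that are female-biased in mouse liver, 3 of 7 were tested, 1 (Cyp2a4) fell and the median log2 fold change was -1.76. For these and the male-biased genes below, the shares over all liver genes were 6.19% called lower and 6.89% higher. Cyp2a4 and Cyp2b13 reached 0.5 FPKM only through their vehicle mice, so the choice of tested genes favoured a negative median. Cyp2b9 was at 97.9, 124, 55.9, 36.2 and 2.06 FPKM in vehicle and 28.5, 0.971, 19.7, 8.24 and 25.5 in SFN mice. Vehicle mouse 5 alone was as low as the lowest SFN mice, and the difference did not pass (limma, adjusted p = 0.355). Cyp2b13 was at 1.24 ± 1.29 and 0.144 ± 0.0928 (limma, adjusted p = 0.175). It was called lower by edgeR (log2 fold change -3.08, adjusted p = 0.0346), by DESeq2 (-3.10, adjusted p = 0.0202) and by limma without vehicle mouse 5 (-2.50, adjusted p = 0.0319). Limma in the fit over all 60 libraries called it (adjusted p = 0.00052) and also Cyp2b9. That fit shares a gene's spread across tissues, and both genes were below 0.5 FPKM outside the liver, so its p can be too small. Of 3 male-biased genes, Cyp4a12a fell and Cyp2d9, a steroid hydroxylase, was at 706 ± 213 and 630.5 ± 210.1, with a list median of -0.43. Of 9 regulators of growth hormone signalling and sex bias, 8 were tested and none passed limma, with 1 at an unadjusted p below 0.05 (Socs2, adjusted p = 0.0787) and 1 called by each of edgeR and DESeq2.

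Partners and regulators of the members were tested in the same livers, where 6.19% of all genes were called lower and 6.89% higher, and each of these lists held 1 or 2 called genes. Of 13 redox partners and heme synthesis genes, Uros (12.0 ± 0.851 to 15.8 ± 1.70 FPKM) and Cpox (40.7 ± 4.14 to 55.9 ± 8.50) rose and 0 fell (limma, adjusted p = 0.0153 and 0.0262), with a median log2 fold change of -0.24. Of 12 xenobiotic receptors and their partners, 11 were tested, and Nfe2l2, the gene for NRF2, fell from 42.1 ± 4.41 to 27.1 ± 3.60 (limma, adjusted p = 0.00641; list median 0.04). Of 13 liver transcription factors, Foxa3 rose from 27.8 ± 5.43 to 44.3 ± 5.94 (limma, adjusted p = 0.0154; list median 0.10). Of 4 PAR bZIP factors and their repressor, Dbp fell from 27.3 ± 16.8 to 6.53 ± 3.08 (limma, adjusted p = 0.0185; list median -0.04). Dbp is known to cycle over the day, and the time at which each mouse's tissues were collected was not given in the sources used here. Time of day and SFN therefore cannot be told apart, for Dbp or for the liver calls above. The authors report that obese mice given SFN ate less and lost weight. Direct effects of SFN and those of lower food intake cannot be told apart here either. A part of Dbp in the fall of Cyp2a5 and Cyp2a4 was not tested.

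The mRNAs of other phase I and phase II enzymes were measured in the same livers, where 6.19% of all genes were called lower and 6.89% higher. Of 5 flavin monooxygenases, 4 were tested and Fmo1 fell from 46.2 ± 3.23 to 28.3 ± 5.14 FPKM (limma, adjusted p = 0.00709; list median -0.73). Of 19 UDP-glucuronosyltransferases, which conjugate many P450 products, 13 were tested, 7 fell and 0 rose, with a median log2 fold change of -0.49. Ugt2b5 went from 502 ± 31.3 to 330.0 ± 60.6 and Ugt2b1 from 143 ± 27.6 to 63.5 ± 26.5 (limma, adjusted p = 0.0131 and 0.0136). Of 18 P450 genes of higher families, 11 were tested and 2 fell, namely Cyp8b1, which directs bile acid synthesis to cholic acid (408 ± 63.3 to 266 ± 41.4), and Cyp46a1, a cholesterol hydroxylase known from brain (4.39 ± 0.900 to 1.26 ± 0.496; limma, adjusted p = 0.0200 and 0.00859; list median -0.14).

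Outside the liver, no member was called by limma in either direction among 16 tested in eWAT, 16 in iWAT, 14 in BAT, 15 in hypothalamus and 12 in skeletal muscle. Over all genes limma called 0.209% in eWAT, 0.00707% in iWAT, 0.0075% in BAT, 0% in hypothalamus and 0% in skeletal muscle. At an unadjusted p below 0.05, 1 member was higher in eWAT, 1 in iWAT, 3 in BAT, 3 in hypothalamus and 2 in skeletal muscle, and 2 were lower, both in hypothalamus. Over all genes that share was 13.4% in eWAT, 8.3% in iWAT, 15.4% in BAT, 6.51% in hypothalamus and 13.6% in skeletal muscle. edgeR called 0 members in each of these tissues (0.23%, 0%, 0.075%, 0% and 0.0234% of all genes, in the same order). DESeq2 called 1 member higher in eWAT (Cyp4f18), 2 in BAT (Cyp4b1 and Cyp2b10), 1 in skeletal muscle (Cyp4b1) and 0 elsewhere (4.42%, 1.22%, 4.48%, 0.0916% and 1.56% of all genes).

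The largest differences were in BAT. Cyp4b1 (chromosome 4, 115624725 to 115647723, minus strand) was at 31.4, 32.0, 29.3, 25.3 and 25.9 FPKM in vehicle and 46.6, 108, 101, 47 and 98.1 in SFN mice. Every SFN library lay above every vehicle library, and the log2 fold change was 1.38 ± 0.25, which just missed the threshold (limma, adjusted p = 0.0682; exact permutation test, p = 0.00794). Cyp2b10 (chromosome 7, 25897620 to 25926624, plus strand), whose promoter holds a D-box match as shown above, was at 2.56, 0.599, 2.30, 1.95 and 4.31 in vehicle and 2.57, 12.7, 16.7, 5.45 and 15.1 in SFN mice. SFN mice 7, 8 and 10 were highest for both genes, and for Cyp2b10 the groups overlapped through mouse 6 (log2 fold change 2.05; limma, adjusted p = 0.150). Cyp2e1 in BAT was at 1.33 ± 0.694 and 8.03 ± 11.2, the latter raised by SFN mouse 7 at 27.7 (limma, adjusted p = 0.335).

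Marker sums also differed in BAT. The 6 adipocyte markers summed to 3238 to 3803 in vehicle and 3889 to 4166 in SFN libraries, the 5 fibroblast markers to 162 to 512 and 130.3 to 170.5, and the 6 muscle fibre markers to between 1.59 and 3063 in single libraries of either group. None of these markers was called by limma in BAT, hepatocyte markers summed to at most 4.68, and the part of these sums in the Cyp4b1 and Cyp2b10 values was not tested.

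The same gene in the other tissues gave smaller differences. Cyp4b1 in skeletal muscle was at 4.23, 3.68, 3.67, 4.56 and 3.17 FPKM in vehicle and 6.18, 9.35, 6.90, 4.94 and 4.53 in SFN mice. The groups overlapped only through SFN mouse 10 and vehicle mouse 4 (log2 fold change 0.67; limma, adjusted p = 0.228). In iWAT it was at 35.4 ± 3.74 and 46.7 ± 14.7, in eWAT at 21.9 ± 2.88 and 29.8 ± 9.39, and in liver at 6.44 ± 3.01 and 6.35 ± 1.60 FPKM (limma, adjusted p = 0.656, 0.452 and 0.932).

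**Figure D5:**
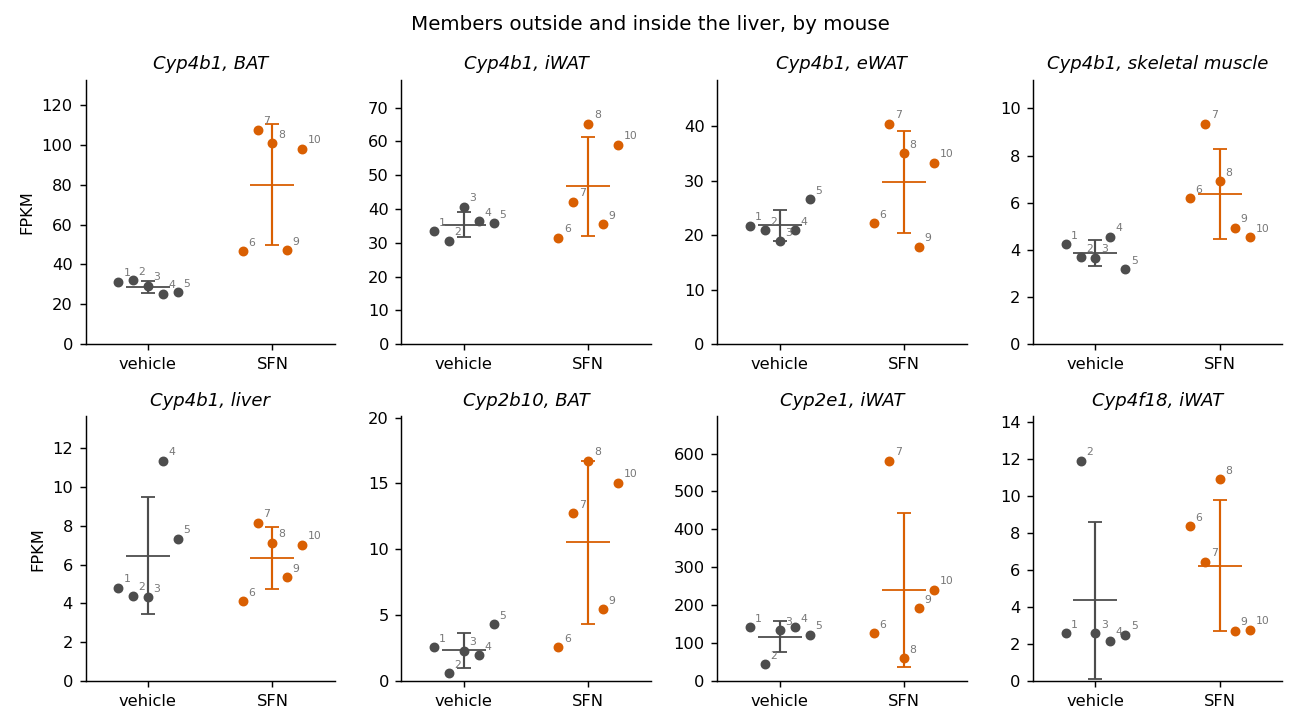
FPKM by mouse of Cyp4b1 in BAT, iWAT, eWAT, skeletal muscle and liver, of Cyp2b10 in BAT, and of Cyp2e1 and Cyp4f18 in iWAT, with the mean and SD of each group (linear axes). Cyp4b1 in BAT is the panel in which the 5 SFN mice all lie above the 5 vehicle mice.

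The difference between tissues was tested within mice, as the liver response minus that of another tissue. For Cyp4b1 the liver response was lower than the BAT response by a log2 difference of -1.33 ± 0.31 (limma, adjusted p = 0.0363, against 5.02% of all genes for liver minus BAT), and it was 0.0534 when mice were not used as a block. For Cyp3a13 the liver response was higher than that of hypothalamus by 0.888 ± 0.22 (limma, adjusted p = 0.0393, against 6.71% of all genes), and its hypothalamus level was 0.630 ± 0.155 and 0.503 ± 0.165 FPKM, from 24 to 54 reads. Liver minus eWAT, iWAT and skeletal muscle gave 0 members, against 2.41%, 2.03% and 2.21% of all genes.

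In eWAT, Cyp4f18 (chromosome 8, 71988482 to 72009626, minus strand) was at 3.62, 4.65, 5.59, 5.03 and 4.89 FPKM in vehicle and 7.31, 6.49, 7.20, 17.5 and 6.56 in SFN mice. All SFN values lay above the vehicle values, with SFN mouse 9 far above the others, and the test was not passed (log2 fold change 0.80; limma, adjusted p = 0.207). Macrophage markers in the same tissue summed to 4055, 3936, 3683, 2449 and 1592 in vehicle mice 1 to 5. In SFN mice 6 to 10 they summed to 3301, 3113, 3298, 5167 and 4429. The sum and Cyp4f18 were both highest in SFN mouse 9, but vehicle mouse 1, with the highest vehicle sum, had the lowest Cyp4f18. None of the markers passed limma, and their part in the Cyp4f18 values was not tested. Cyp4f39 and Cyp2j6 in eWAT were at 0.898 ± 0.422 and 0.526 ± 0.255, and at 3.78 ± 1.04 and 3.09 ± 0.249 FPKM (limma, adjusted p = 0.476 and 0.508).

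In iWAT, Cyp4f18 was at 2.58, 11.9, 2.59, 2.18 and 2.50 FPKM in vehicle and 8.36, 6.44, 10.9, 2.72 and 2.77 in SFN mice. The 4 highest libraries, in both groups, were those with high lymphocyte markers. Cyp2e1 was at 142, 43.8, 134, 142 and 122 in vehicle and 125, 582, 60.3, 191 and 241 in SFN mice, so that the lowest libraries of both groups lay close together and the highest was SFN mouse 7 (limma, adjusted p = 0.697). Cyp2d22 had the smallest p in iWAT, at 9.42 ± 1.13 and 13.5 ± 3.34 (log2 fold change 0.49; limma, adjusted p = 0.432).

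In hypothalamus the 4 members with the smallest p were Cyp2j6 (6.54 ± 0.432 and 5.81 ± 0.421 FPKM), Cyp2j9 (8.58 ± 0.837 and 10.7 ± 1.95), Cyp2t4 (1.15 ± 0.289 and 1.49 ± 0.177) and Cyp2j12 (1.84 ± 0.310 and 1.42 ± 0.325). Their log2 fold changes lay between -0.36 and 0.36, all groups overlapped, and the smallest limma adjusted p was 0.745. Cyp4x1, a P450 known from brain, was at 4.47 ± 0.296 and 4.66 ± 0.214. In skeletal muscle, Cyp4f17 was at 2.14 ± 0.348 and 3.19 ± 1.12 (limma, adjusted p = 0.319), and Cyp4f39 was between 0.243 and 0.857 FPKM in 8 mice but at 23.4 in vehicle mouse 2 and 16.1 in SFN mouse 7.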

How the data were processed

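RNA was extracted with Trizol and sequenced as poly(A) libraries. The authors deposited FPKM per gene for all 60 libraries, and for each tissue a table with counts of reads and size-factor-scaled counts (a signal per gene). Those tables also hold the authors' log2 fold change and p-value columns of their own comparisons, deposited by the authors and not used here. The submitters' processing notes name GRCm38 and mm10, while no aligner or counter was named in the sources used here. The deposited FPKM carry a size-factor scaling between libraries.

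Per tissue, log2(FPKM + 0.1) of genes with a mean FPKM of 0.5 or more was tested with limma 3.58.1 (R 4.3.3) with an intensity trend, SFN against vehicle (two-sided), and p-values were adjusted by Benjamini-Hochberg within each tissue. A call is an adjusted p below 0.05, and fold changes of low genes are understated by the added 0.1. Vehicle and SFN mice are different animals. Tissues were compared within mice, which the mouse labels pair across tissues. Reads were recovered from FPKM and gene length: 98.576% of genes above 0 came out whole (within 0.01), none of 146080 known counts differed, and for 544 genes, Cyp4f39, Cyp4f13 and Cyp2c54 among them, the length was fitted. edgeR 4.0.16 and DESeq2 1.42.0 on these reads, other pseudocounts, filters and scalings, a fit over all 60 libraries and leaving out each mouse were alternatives. The fit over all 60 libraries shared a common spread per gene across tissues and did not use the mouse as a block. For genes near 0 in most tissues that spread, and p with it, can be too small. The tests were also run on simulated counts that had the same spread between mice for every gene. Spread differed widely between the members here, so that run does not settle the error rates in these data.

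Named genes were every called member, the 5 most abundant members of each tissue, the 4 of smallest p in a tissue without calls, and the leading genes of each list. The members and lists were chosen with earlier results of these data known. Other members named for their level or spread, and the promoters shown, were chosen after their values were seen.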

Additional observations from a re-analysis of the deposited data

Results flagged for a closer look

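In 7 of 116 groups of 5 mice (6.03%) the highest or lowest mouse lay far from the other 4. Chance gives about 1 in 20 for independent groups of normally distributed values. These groups share mice and genes and FPKM was not put on a log scale, so that rate is only a rough guide. Cyp2c70 in vehicle liver was at 156 FPKM in mouse 1, against 98.5 to 108 in the others. Cyp2e1 in SFN mouse 7 was at 74.3 in eWAT (others 4.05 to 12.8) and at 27.7 in BAT (others 1.27 to 7.12), and in iWAT it was at 43.8 in vehicle mouse 2 (others 122 to 142). Cyp4f18 in eWAT was at 17.5 in SFN mouse 9, against 6.49 to 7.31. Cyp4f39 in skeletal muscle was at 23.4 in vehicle mouse 2 (others 0.451 to 0.857) and at 16.1 in SFN mouse 7 (others 0.243 to 0.688).

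The response to SFN differed between tissues for 2 members in the within-mouse test, Cyp4b1 for liver minus BAT (log2 difference -1.33) and Cyp3a13 for liver minus hypothalamus (0.888).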

How the results depend on the processing

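Across the other settings tried, 1026 fold changes of single members kept their direction and their side of the threshold, 24 newly passed it, 41 no longer passed it and 36 changed sign. The 2 liver members called higher were called in every alternative. The count called lower in liver, 6, was 3 with no filter on low values, 10 after quantile normalization, 11 after rescaling to TPM, 12 with DESeq2, 17 in the fit over all 60 libraries, and 2 to 12 when 1 mouse was left out. Rescaling to TPM moved the median of all liver genes from -0.018 to -0.078 on the log2 scale. DESeq2 called 1 member higher in eWAT, 2 in BAT and 1 in skeletal muscle, where limma called 0, and the fit over all 60 libraries called 2 higher in BAT and 1 in skeletal muscle. The fit over all 60 libraries shares a gene's spread across tissues and has no mouse block, so its counts can be too high. Causes of these differences were not tested.

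No paired analysis was possible because, inside a tissue, vehicle and SFN mice are different animals. Between tissues the mouse was the block. The count of members whose response differed between liver and BAT, 1, was 0 with no replicate block, 2 with no filter, 2 after rescaling to TPM and 0 to 2 when 1 mouse was left out. The 2 with no filter were Cyp2a5 and Cyp3a13, and Cyp4b1 was not called there. Cyp4b1 stayed called in 9 of 17 alternatives. For liver minus hypothalamus the count, 1, was 0 with a pseudocount of 0.01, with a filter at 1 FPKM and after rescaling to TPM, and 0 to 4 when 1 mouse was left out. With no filter the member called was Cyp2a5 in place of Cyp3a13, and Cyp3a13 stayed called in 6 of 16 alternatives. For liver minus iWAT it was 1 after rescaling to TPM and 0 to 1 when 1 mouse was left out, and for liver minus skeletal muscle 0 to 1. The replicate block changed no other count.

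None of the members whose fold change reversed was called. Cyp1a2 in liver reversed to -0.045 under TPM. When 1 mouse was left out, the log2 fold changes in liver ranged from -0.16 to 0.28 for Cyp1a2, from -0.11 to 0.026 for Cyp2d26, from -0.14 to 0.0087 for Cyp2d10 and from -0.60 to 0.017 for Cyp1a1. In eWAT they ranged from -0.36 to 0.68 for Cyp2e1 and from -0.093 to 0.020 for Cyp4f13, and in iWAT from -0.021 to 0.096 for Cyp4f17. In BAT they ranged from -0.021 to 0.079 for Cyp2d22 and from -0.015 to 0.15 for Cyp4v3, and in hypothalamus from -0.053 to 0.036 for Cyp4f17. In skeletal muscle they ranged from -0.18 to 0.0035 for Cyp2d22, from -1.55 to 0.45 for Cyp4f39 and from -0.42 to 0.38 for Cyp2e1. Cyp2e1 in skeletal muscle was also 0.0032 with a pseudocount of 1, 0.044 after quantile normalization, 0.037 under TPM, 0.033 with edgeR and 0.037 with DESeq2. Low depth limits Cyp2a4 in liver (1 to 93 reads) and Cyp3a13 in hypothalamus (24 to 54 reads).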

Other observations

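Other short motifs were counted in the same 46 member promoters, on both strands, as a description only. The TATA box TATAAA was present in 19 of 46 (41.3%, against 14.2% of all promoters), CCAAT in 25 (54.3%, against 37.9%) and the C/EBP site TTGCNNAA in 10 (21.7%, against 10.8%). The core of the antioxidant response element, TGACNNNGC, through which NRF2 is known to act, was present in 3 (6.52%, against 12.5%). The AHR core GCGTG was present in 12 (26.1%, against 32.5%), the STAT site TTCNNNGAA in 3 (6.52%, against 8.47%) and the E-box CACGTG in 2 (4.35%, against 7.24%).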
